A study of Mus musculus with 3 samples.

Results

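The 35 genes described here encode the sensors through which cells detect microbes and misplaced nucleic acids, with the proteins that carry or relay their signal. They comprise 5 Toll-like receptors (TLRs) of the cell surface, 7 TLRs of endosomes, 5 TLR cofactors, 4 adaptors, 4 kinases of the IRAK family, 2 NOD receptors, 3 genes of cytosolic RNA sensing, 3 genes of cytosolic sensing of DNA or Z-form nucleic acid and 2 inflammasome genes. They were taken by symbol from a list of names, and the rule itself uses no measured value. All 35 were found among the 24437 genes analysed, each at 1 locus.

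RNA sequencing was performed on thymuses of Mb1-CreDPB mice, C57BL/6 animals labelled leukemic. The labels give the genotype by name only. From general knowledge of the model, Cre is driven by mb-1 (Cd79a), a gene of the B lineage, and removes Spi1, which encodes the ETS factor PU.1, from B cells of mice that carry no functional Spib, the gene of the related factor Spi-B. Cells outside the B lineage keep Spi1. Each whole thymus was homogenised, red cells were lysed, and the remaining cells were pelleted for RNA, per the labels' protocols. The 3 libraries form 1 group and are called leukaemia 1 for Thy_853, leukaemia 2 for Thy_854 and leukaemia 3 for Thy_857. Ages are not given in the sources used, and no control thymus was analysed here. The labels number the thymuses but do not state that each came from a different mouse, so every ± is an SD between 3 libraries that may be technical. Where 3 values follow a gene, they run from leukaemia 1 to leukaemia 3 and are FPKM, the authors' fragment numbers scaled to transcript length and library size, which allows levels of different genes to be compared.

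TLRs bind microbial products outside the cell or nucleic acids inside endosomes and signal through the adaptors Myd88 and Ticam1 (TRIF). RIG-I-like helicases sense viral RNA in the cytosol through Mavs. DNA or Z-form nucleic acid is sensed by proteins such as Aim2 and Zbp1, and STING (Tmem173) is an adaptor for cyclic dinucleotides. In B cells these routes add to signals from the antigen receptor, and macrophages and dendritic cells are rich in many of the same receptors.

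The thymuses were rich in B lineage RNA. All 10 pan-B markers had FPKM of at least 1 in the 3 leukaemias, and their summed FPKM was 4470, 3529 and 3028. The 10 T cell markers summed to 224, 197 and 113, or to 147, 32.1 and 37.2 for the 9 other than Lck. The 10 macrophage markers summed to 227, 192 and 110, and the 10 neutrophil markers to 252, 208 and 29.0. Spi1 itself had 11.6, 6.70 and 7.13, and Spib 11.8, 14.6 and 9.60. Exons outside a deleted part and, for Spi1, cells that keep the gene also give fragments, so these values do not check the deletions. In bulk RNA, fewer cells of a type and less RNA per cell cannot be told apart.

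Promoter windows from 250 bases before to 50 bases after the gene start were available from RefSeq (GRCm38.p6) for 27 of the 35 genes. Windows were not used here for Tmem173, Tlr4, Tlr7, Zbp1, Cd14, Ly96, Unc93b1 and Ticam2. Each window was searched on both strands for GAAANNGAA, a repeat of the interferon response type, for GAGGAAGT, a site of the PU.1 and Spi-B type, and for GGAANNGAA, an ETS and IRF composite type. GGAANNGAA and GAAANNGAA can overlap in a window. The windows of the paired helicase genes Ifih1 and Ddx58 are shown for the first letters and those of Pycard and Tlr9 for the second. Capitals mark the match, which reads as the reverse complement where it lies on the other strand.
Ifih1: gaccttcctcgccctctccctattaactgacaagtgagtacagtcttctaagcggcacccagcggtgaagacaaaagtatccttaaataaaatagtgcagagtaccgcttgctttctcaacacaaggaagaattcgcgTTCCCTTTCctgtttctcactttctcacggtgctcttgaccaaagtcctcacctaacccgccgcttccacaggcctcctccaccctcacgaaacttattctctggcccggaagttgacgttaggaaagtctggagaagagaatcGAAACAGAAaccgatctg
Ddx58: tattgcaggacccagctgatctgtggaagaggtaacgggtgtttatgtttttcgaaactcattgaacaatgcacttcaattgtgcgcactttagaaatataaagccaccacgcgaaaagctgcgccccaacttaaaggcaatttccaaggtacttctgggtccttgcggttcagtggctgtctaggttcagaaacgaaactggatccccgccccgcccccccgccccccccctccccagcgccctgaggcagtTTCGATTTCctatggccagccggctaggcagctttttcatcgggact
Pycard: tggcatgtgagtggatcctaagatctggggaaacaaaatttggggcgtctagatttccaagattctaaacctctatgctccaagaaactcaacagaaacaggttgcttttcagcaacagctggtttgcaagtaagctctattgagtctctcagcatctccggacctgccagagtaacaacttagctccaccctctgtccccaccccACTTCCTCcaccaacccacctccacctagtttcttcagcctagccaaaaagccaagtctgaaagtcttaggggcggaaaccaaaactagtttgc
Tlr9: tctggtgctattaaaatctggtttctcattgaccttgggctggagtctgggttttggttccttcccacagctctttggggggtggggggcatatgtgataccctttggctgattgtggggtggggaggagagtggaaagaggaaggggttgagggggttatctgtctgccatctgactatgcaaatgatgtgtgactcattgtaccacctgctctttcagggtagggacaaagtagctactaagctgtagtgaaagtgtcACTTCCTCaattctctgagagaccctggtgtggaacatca
The Ifih1 window lies at chr2:62646206-62646505 on the minus strand, Ddx58 at chr4:40239776-40240075 on the minus strand, Pycard at chr7:127993818-127994117 on the minus strand and Tlr9 at chr9:106222348-106222647 on the plus strand.

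GAAANNGAA was found in the windows of 8 of the 27 genes, namely Ddx58, Ifih1, Irak3, Ly86, Myd88, Tlr6, Tlr8 and Tlr11. Of all 27025 genes with a window, 9.76% held it. GAGGAAGT was found for 5 of the 27, namely Aim2, Pycard, Tlr1, Tlr9 and Tlr11, against 3.69% of all genes. GGAANNGAA was found for Ticam1 alone, against 9.42% of all genes. Tlr11, a receptor for protozoan profilin, held both of the first motifs. A match describes these letters in this window and is not a binding site, and a window without a match says nothing of the factor.

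**Figure D1:**
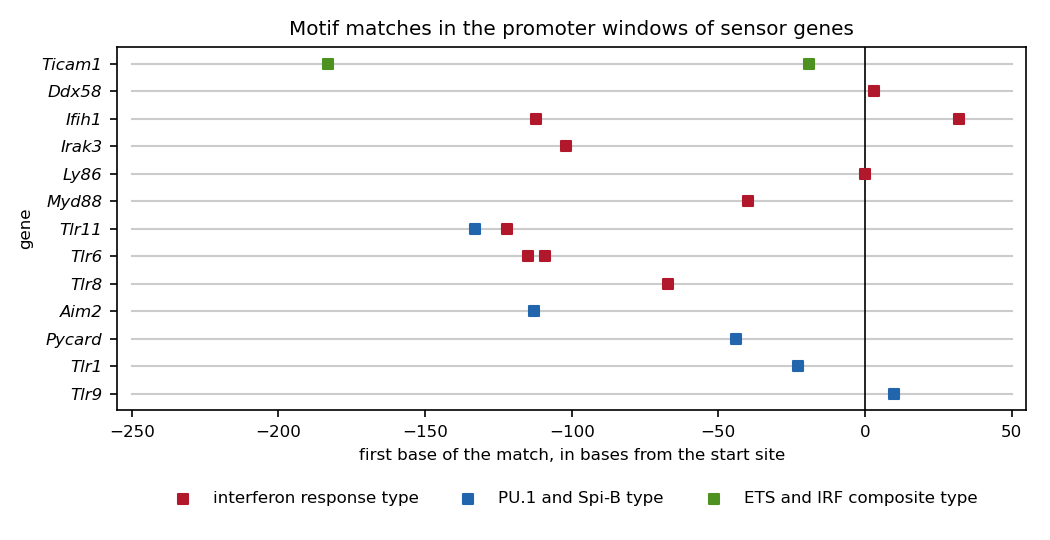
Position of the first base of each motif match, in bases from the gene start, in the promoter windows of the 13 genes that hold 1 or more of the motifs (grey lines span 250 bases before to 50 after the start, and colours name the motif type). Ifih1 has matches of the interferon response type at -112 and 32, Ddx58 at 3, and Pycard and Tlr9 have matches of the PU.1 and Spi-B type at -44 and 10.

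Of the 35 genes, 17 reached FPKM of at least 1 in all 3 leukaemias, 8 reached it in some and 10 in none. None was listed at 0. The share at that level in all 3 was 48.6% of the 35 and 38.1% of all 24437 genes. In leukaemias 1, 2 and 3 it was reached by 25, 18 and 17 of the 35, and by 9992, 9797 and 9706 of all 24437 genes. Of the 35, 7 reached it in leukaemia 1 alone, and the share of all genes that did so was not computed. The highest levels belonged to Unc93b1, Zbp1, Tmem173, Myd88, Pycard, Irak1 and Ddx58, the 7 genes with FPKM of at least 10 in all 3. A chaperone of TLRs, cytosolic sensors and shared adaptors thus stood above the receptors themselves. When the 35 were ordered by mean FPKM, the ranges of neighbours over the leukaemias overlapped for 30 of 34 neighbours. The 4 that did not overlap were Unc93b1 above Zbp1, Irak1 above Ddx58, Ly96 above Nod1 and Tlr11 above Tlr5.

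**Figure D2:**
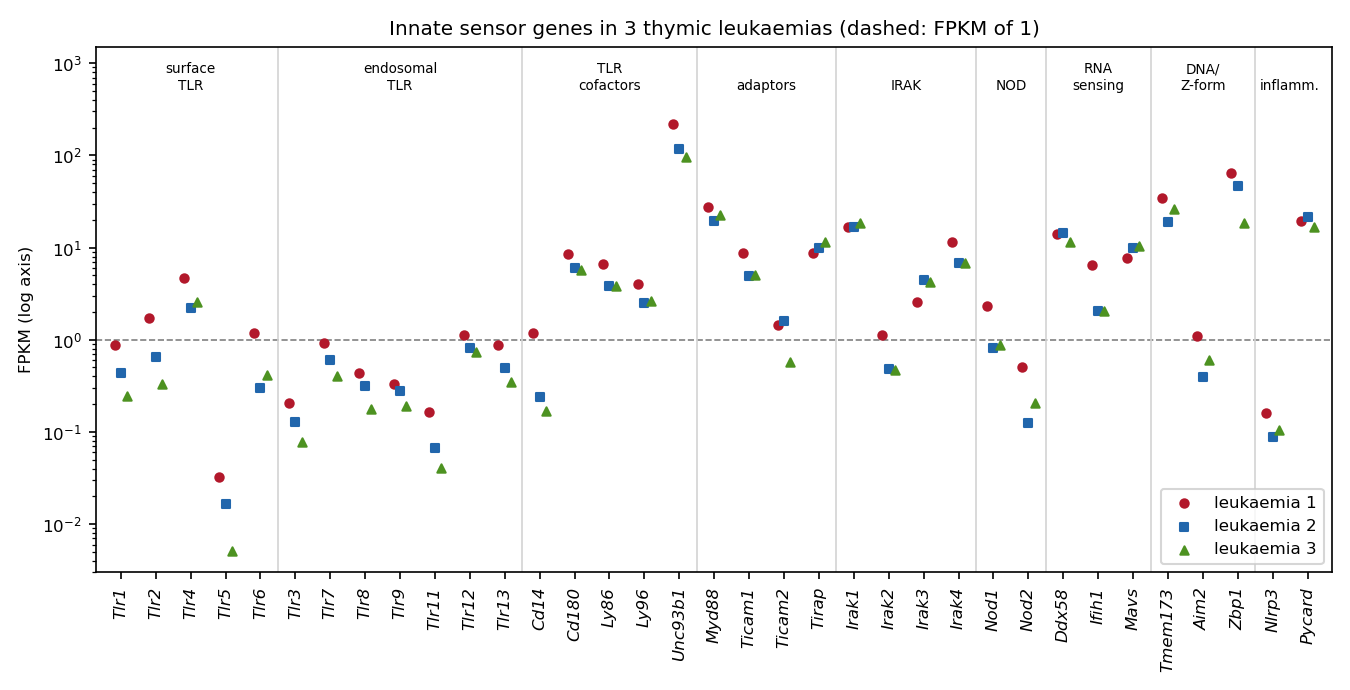
FPKM (log axis) of each of the 35 genes, grouped by role, with 1 point for each of the 3 leukaemias and a dashed line at FPKM of 1. Unc93b1 is highest at 217, 116 and 96.7, most TLR genes lie under the line, and the points of leukaemia 1 are uppermost for 28 of the 35 genes.

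Tlr4, the receptor for bacterial lipopolysaccharide, was the only 1 of the 12 TLR genes with FPKM of at least 1 in all 3 leukaemias, at 4.67, 2.22 and 2.58 (mean 3.16 ± 1.32). Leukaemia 1 was highest, and its deposited 95% interval of 4.40 to 4.90 lay above those of leukaemias 2 (2.05 to 2.38) and 3 (2.40 to 2.76). Such intervals do not cover differences between animals, and the share of all genes with intervals apart was not computed. Tlr2, which senses bacterial lipopeptides together with Tlr1 or Tlr6, had 1.72, 0.646 and 0.328. The deposited intervals of Tlr2 were apart in each of the 3 pairs. Its partner Tlr1 had 0.879, 0.433 and 0.246, and Tlr6 had 1.17, 0.302 and 0.410. Both partners were again highest in leukaemia 1. Tlr5, the receptor for bacterial flagellin, was the lowest of the 35 genes at 0.0322, 0.0167 and 0.00509, and the intervals of leukaemias 2 and 3 reached 0.

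No endosomal TLR reached FPKM of 1 in all 3 leukaemias, and the 7 together summed to 4.07, 2.70 and 1.98. Tlr12, a partner of Tlr11 in sensing profilin, was the highest at 1.13, 0.818 and 0.744. Tlr7, a receptor for single-stranded RNA that B cells use, had 0.933, 0.607 and 0.403, and Tlr8, its neighbour in sequence and on the X chromosome, had 0.436, 0.318 and 0.179. Tlr7 and Tlr8 were both highest in leukaemia 1 and lowest in leukaemia 3, and the intervals of Tlr7 were apart in each pair. Tlr9, the receptor for unmethylated CpG DNA that B cells also use, had 0.329, 0.275 and 0.191. The intervals of Tlr9 overlapped in each pair of leukaemias. Tlr13, a sensor of bacterial ribosomal RNA in the mouse, had 0.873, 0.489 and 0.348, Tlr3, which binds double-stranded RNA, had 0.207, 0.129 and 0.0777, and Tlr11 had 0.166, 0.0665 and 0.0406. All 7 were highest in leukaemia 1, as were the 5 surface receptors, which summed to 8.47, 3.61 and 3.57.

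Unc93b1, which carries the endosomal TLRs from the endoplasmic reticulum to endosomes, differed most from its clients in level. Its FPKM was 217, 116 and 96.7 (mean 143 ± 64.6), which ranked it 261st, 625th and 823rd of 24437 genes. The 3 deposited intervals were 217 to 224, 115 to 120 and 95.6 to 100.03 and did not overlap. Unc93b1 stood at 53.3, 43.0 and 48.7 times the summed FPKM of the 7 endosomal receptors. The ratio varied less among leukaemias than the level of Unc93b1 did, and receptors and chaperone were both highest in leukaemia 1 and lowest in leukaemia 3.

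Of the cofactors, Cd180 and Ly86 exceeded the lipopolysaccharide proteins Ly96 and Cd14 in FPKM in each leukaemia. The deposited intervals of Ly86 and Ly96 overlapped in each leukaemia, however. Cd180 (RP105), a TLR-like surface protein of B cells, had 8.59, 6.06 and 5.67, and Ly86 (MD-1), which binds Cd180, had 6.62, 3.84 and 3.84. Ly96 (MD-2), which holds lipopolysaccharide on Tlr4, had 4.07, 2.49 and 2.62. These 3 genes were highest in leukaemia 1 and nearly level between leukaemias 2 and 3. Cd14, which hands lipopolysaccharide to Tlr4 and is abundant on monocytes, had 1.20, 0.240 and 0.167. Leukaemia 1 stood at 4.99 and 7.18 times the Cd14 level of leukaemias 2 and 3, and its interval of 0.893 to 1.43 lay above theirs. Ly86 in leukaemia 1, and Myd88 and Pycard in all 3, had FPKM above their own deposited upper bound. Value and interval were thus not on 1 scale there. The same held for some genes of the lists below, such as the neutrophil marker S100a8, at 117 in leukaemia 1 with an upper bound of 66.0.

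The adaptors varied in different ways. Myd88, used by nearly all TLRs and by interleukin-1 receptors, had 27.7, 19.3 and 22.4 (mean 23.1 ± 4.24). Ticam1, the adaptor of Tlr3 and of Tlr4 in endosomes, had 8.70, 4.92 and 5.08. Tirap, which bridges Tlr2 and Tlr4 to Myd88, had 8.82, 9.91 and 11.6. Tirap was thus highest in leukaemia 3, unlike Myd88 and Ticam1, which were highest in leukaemia 1. Ticam2 (TRAM), the bridge from Tlr4 to Ticam1, had 1.45, 1.61 and 0.568. Annotated exons of Ticam2 share 838 bases on the same strand with Tmed7, which had 40.6, 39.1 and 33.8, so its fragments cannot be told apart from those of Tmed7 there. An exon of Myd88 shares 223 bases with Acaa1a on the opposite strand, which had 43.3, 35.5 and 39.4, and the sources used here do not state whether the libraries kept strand.

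The IRAK family relays signals from Myd88. Irak1 had 16.6, 16.8 and 18.4 (mean 17.3 ± 1.02). Irak4, the first kinase of the chain, had 11.4, 6.79 and 6.74. Irak1 was nearly level, while Irak4 was highest in leukaemia 1. Irak2 had 1.13, 0.484 and 0.469. Irak3 (IRAK-M), an inhibitor of the chain, had 2.58, 4.44 and 4.24. An exon of Irak3 shares 122 bases with Tmbim4 on the opposite strand, which had 46.7, 40.0 and 39.5. Whether the libraries kept strand is not stated, as for Myd88. Irak3 was the member furthest below both other leukaemias in leukaemia 1, at 0.581 and 0.609 times their FPKM, with an interval of 2.23 to 2.81 that lay under 3.90 to 4.74 and 3.73 to 4.54.

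Nod1, a cytosolic receptor for fragments of bacterial cell wall, had 2.32, 0.810 and 0.867, and its relative Nod2 had 0.510, 0.124 and 0.207. Both were highest in leukaemia 1, whose intervals lay above those of the other two for each gene.

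Among the RNA sensors, Ifih1 (MDA5), which senses long double-stranded RNA, had 6.48, 2.06 and 2.03. Leukaemia 1 stood at 3.14 and 3.19 times the other two, and its interval of 6.16 to 6.84 was above 1.88 to 2.25 and 1.86 to 2.21. Ddx58 (RIG-I), which senses short RNA with a 5′ triphosphate, had 13.9, 14.3 and 11.4 (mean 13.2 ± 1.57). Ddx58 thus did not share the pattern of Ifih1. The promoter windows printed above hold GAAANNGAA in both, and a link between motif and level was not tested. Mavs, the mitochondrial adaptor of both helicases, had 7.78, 9.92 and 10.5 and was lowest in leukaemia 1.

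Zbp1, a sensor of Z-form nucleic acid that can start necroptosis, had 63.8, 47.0 and 18.4 (mean 43.1 ± 23.0). Its 3 intervals were apart, and leukaemia 3 was the low one at 17.0 to 19.8. Tmem173 (STING), the adaptor for cyclic dinucleotides, had 34.4, 18.8 and 26.3 (mean 26.5 ± 7.83). Its intervals were also apart, with leukaemia 2 lowest. Aim2, the DNA sensor of an inflammasome, had 1.10, 0.393 and 0.610. Pycard (ASC), the adaptor shared by several inflammasomes, had 19.6, 21.4 and 16.7 (mean 19.2 ± 2.34), while Nlrp3, an inflammasome sensor of cell damage, had 0.160, 0.0872 and 0.104. The adaptor thus stood well above both inflammasome sensors in each leukaemia.

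Leukaemia 1 was the highest of the 3 for 28 of the 35 genes, leukaemia 2 for 4 and leukaemia 3 for 3. That is 80.0% of the members, where 42.7% of all genes above 0 were highest in leukaemia 1. The 7 exceptions were Ticam2, Ddx58, Pycard and Irak3, highest in leukaemia 2, and Tirap, Irak1 and Mavs, highest in leukaemia 3. The median of log2(FPKM + 1) over the members was 1.73, 1.38 and 0.90 (mean 1.34 ± 0.42), against 0.12, 0.10 and 0.08 over all genes. Genes at FPKM of at least 1 in all 3 leukaemias had medians of 3.94, 3.92 and 3.97. The medians over all genes thus had the order of the members, and those over the expressed genes did not.

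To say which members differed between 2 leukaemias, a gene was counted when 3 criteria held. Its log2(FPKM + 1) differed by 1 or more, its FPKM reached 1 in either leukaemia, and the deposited intervals of the pair were apart. With 1 library per leukaemia there is no replicate check of a pair and no p-value. The comparisons of leukaemia 1 with 2 and with 3 share leukaemia 1. Between leukaemias 1 and 2, 25 members reached FPKM of 1 in either, and 1 of them, Ifih1, was counted as higher in leukaemia 1, with a log2 difference of 1.29. That is 4% of the 25, where 5.56% of the genes that could be counted were higher in leukaemia 1 and 2.6% were lower. Between leukaemias 1 and 3, 4 of 25 members were counted as higher in leukaemia 1, which is 16% where the background was 6.75%. They were Zbp1 (1.74 on the log2 scale), Ifih1 (1.30), Unc93b1 (1.16) and Tlr2 (1.03). Between leukaemias 2 and 3, 1 of 18 members, Zbp1 with 1.31 on the log2 scale, was higher in leukaemia 2, which is 5.56% against 2.96%. No member was lower in the first leukaemia of any pair, where the background was 3.22% for leukaemias 1 and 3 and 1.72% for leukaemias 2 and 3.

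The pseudocount of 1 understates differences of genes as low as most of these. With a pseudocount of 0.01 and no minimum of FPKM, criteria chosen after the data were seen, 11 of the 35 members were higher in leukaemia 1 than in leukaemia 2. That is 31.4%, where 9.76% of all genes above 0 in either leukaemia of the pair were higher and 5.01% lower. Against leukaemia 3, 16 members (45.7%) were higher in leukaemia 1. The background, again of genes above 0 in either, was 12.3% higher and 4.57% lower. Leukaemia 2 was higher than leukaemia 3 for 2 members, Zbp1 and Ticam2, or 5.71%. Of all genes above 0 in either of that pair, 6.63% were higher and 3.07% lower. No member was lower in the first leukaemia of any pair. In leukaemia 1, 9 genes exceeded both other leukaemias by these criteria, namely Tlr1, Tlr2, Tlr6 and Tlr11 of the receptors, the cofactor Cd14, the kinase Irak2, Nod1, Nod2 and Ifih1. All of them but Ifih1 and Nod1 were under FPKM of 2 in each leukaemia.

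**Figure D3:**
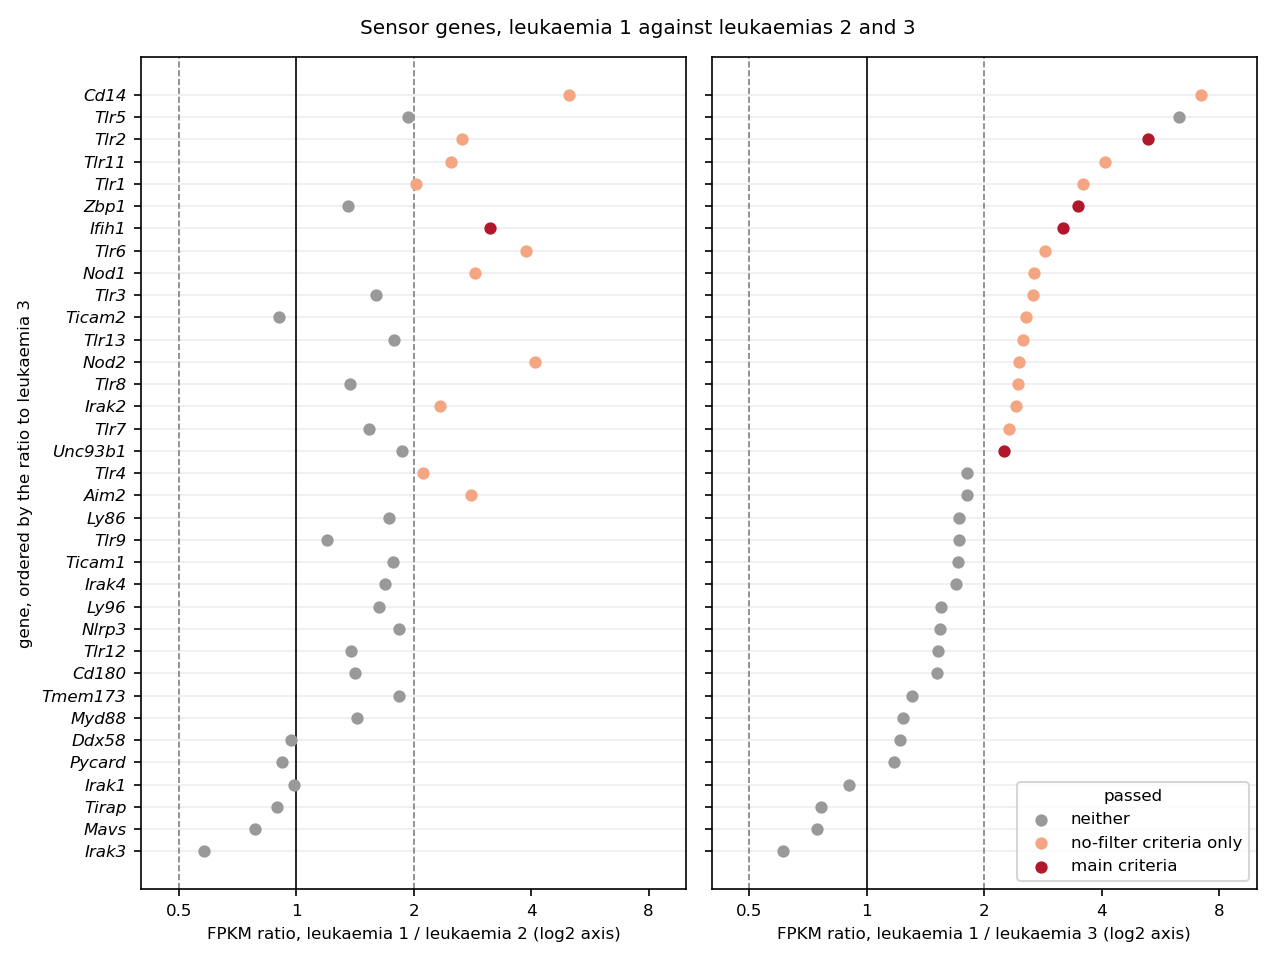
Ratio of FPKM (log2 axis) of leukaemia 1 over leukaemia 2 (left) and over leukaemia 3 (right) for each of the 35 genes, with a solid line at equal levels, dashed lines at ratios of 0.5 and 2, dark points past the 3 criteria and light points past only those without a minimum of FPKM. Both ratios share leukaemia 1, Cd14 lies at 4.99 and 7.18, and Irak3 lies at 0.581 and 0.609.

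The median difference of the 35 members on the log2(FPKM + 1) scale was 0.43 between leukaemias 1 and 2, 0.46 between 1 and 3 and 0.02 between 2 and 3. All genes with FPKM of at least 1 in either had medians of 0.02, -0.01 and -0.06. Marker lists of other cells were counted by the same criteria. Of the 10 T cell markers, leukaemia 1 exceeded leukaemia 2 in 8 and leukaemia 3 in 8, although Lck, the highest of the list, had 77.1, 164.7 and 75.6 and Trat1, the lowest, had 0.787, 0.0691 and 0.187. Of the 10 macrophage markers, 0 were higher than in leukaemia 2 and 3 were higher than in leukaemia 3, from C1qb at 61.8, 38.1 and 27.5 down to Mertk at 1.07, 0.804 and 0.492. For neutrophil markers leukaemia 1 exceeded leukaemia 2 in 1 of 10, was lower in 1 and exceeded leukaemia 3 in 6. Their highest, S100a8, had 117, 92.1 and 13.8, their lowest, Ly6g, had 0.774, 0.277 and 0.147, and Elane was listed at 0 in leukaemia 3. The 7 natural killer cell markers summed to 93.0, 144 and 84.4, with 4 and 3 of them higher in leukaemia 1 than in leukaemias 2 and 3 and 1 lower than in each. The lower one was the highest of the list, Gzma at 17.1, 124.7 and 62.6, and Ncr1 was the lowest at 0.190, 0.132 and 0.0843.

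Conventional dendritic cell markers summed to 11.4, 5.31 and 11.6, with Ccr7 highest at 6.03, 3.57 and 8.76 and Cd209a listed at 0 in leukaemias 2 and 3. Plasmacytoid dendritic cell markers summed to 263, 167 and 180. Nearly all of that was Bst2, which other cells express too, at 259.7, 165.8 and 174.9, whereas the defining marker Siglech had 0.108, 0.00832 and 0.143 and was the lowest. By the pair criteria Ccr9 was higher in leukaemia 1 than in leukaemia 2 (1.18, 0.0687 and 0.148), and Cox6a2 was listed at 0 in leukaemia 1 and was lower there than in either other (1.17 and 3.997). None of the 8 conventional markers was counted by these criteria between leukaemia 1 and either other. Most of the 8 stayed under FPKM of 1 in each leukaemia and so could not be counted. Of the 8, 7 were highest in leukaemia 1, where 42.7% of all genes above 0 were. So were 9 of 10 T cell, 8 of 10 macrophage, 6 of 7 natural killer cell and 5 of 7 plasmacytoid markers. The counts were 6 of 10 for pan-B, 5 of 10 for neutrophil and 3 of 8 for thymic epithelial markers. Thymic epithelial markers summed to 5.66, 5.30 and 7.08, with Ccl25 highest at 2.57, 2.32 and 1.94. Foxn1, the transcription factor that defines this epithelium, was listed at 0 in leukaemias 1 and 3 and Psmb11 in leukaemia 3. Of the pan-B markers, leukaemia 1 exceeded leukaemia 2 in 2, was lower in 1, and differed from leukaemia 3 in 0. Vpreb3, the highest, had 1520, 1121 and 981, and Fcrla, the lowest, had 5.66, 84.1 and 3.32. The part of these cells in the levels of the sensor genes was not tested.

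The 8 pairs of related genes were compared within each leukaemia as differences of log2(FPKM + 1), by exact sign-flip permutation over the 3 libraries (two-sided), adjusted over the 8 pairs by the Benjamini-Hochberg method. The smallest p that 3 libraries allow is 0.25, so no pair could pass 0.05. For 7 pairs the first gene was higher in 3 of 3 leukaemias, with an exact permutation p of 0.25 and an adjusted p of 0.286. Ddx58 exceeded Ifih1 by 1.78 ± 0.70, and Myd88 exceeded Ticam1 by 1.76 ± 0.19. The other 5 differences were 1.01 ± 0.44 for Irak1 over Irak4, 0.93 ± 0.19 for Cd180 over Tlr4, 0.82 ± 0.28 for Nod1 over Nod2, 0.49 ± 0.09 for Ly86 over Ly96 and 0.32 ± 0.09 for Tlr7 over Tlr8. Tlr1 and Tlr6, which stand beside Tlr2, took different orders, at -0.21, 0.14 and -0.18 (exact permutation p = 0.5, adjusted 0.5). The gap of Ddx58 over Ifih1 was narrowest in leukaemia 1, at 0.99 against 2.32 and 2.03, and that of Irak1 over Irak4 likewise at 0.50 against 1.19 and 1.33.

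**Figure D4:**
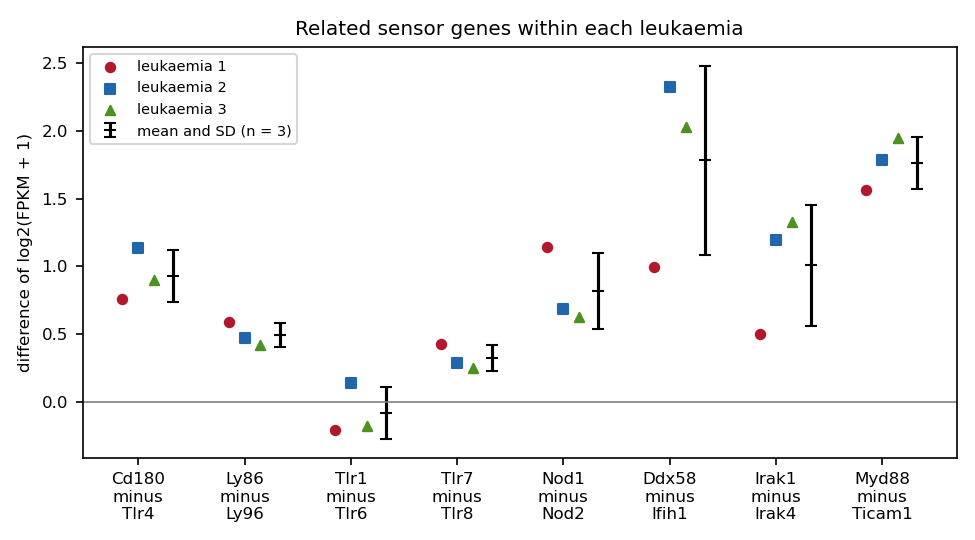
Difference of log2(FPKM + 1) between the first and the second gene of 8 related pairs, with 1 point per leukaemia and the mean and SD over the 3 leukaemias. Of the 8 pairs, 7 lie above 0 in all 3 leukaemias, and Tlr1 and Tlr6 lie on both sides of 0.

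Genes that act with the sensors were described from 5 lists of 77 genes that hold none of the members. Of these, 57 had FPKM of at least 1 in all 3 leukaemias. For 50 no other leukaemia was higher than leukaemia 1, and 42.7% of all genes above 0 were highest there. The 50 include the trafficking gene Lamp5, which was listed at 0 in all 3 leukaemias and thus highest in none. By the same criteria as above, 10 exceeded leukaemia 2 in leukaemia 1 and 0 were lower, of 65 that could be counted, where 5.56% of all such genes were higher and 2.6% lower. Against leukaemia 3, 10 of 65 were higher, where 6.75% of all such genes were, and 1, the ubiquitin ligase gene Traf3 at 0.910, 2.24 and 3.52, was lower. Between leukaemias 2 and 3 none of 62 differed.

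Of 20 genes of signalling below the adaptors, 18 were at FPKM of at least 1 in all 3. Ecsit, a partner of Traf6, was highest at 47.1, 44.5 and 68.9, followed by Irf7 at 102.5, 35.5 and 21.2 and by Tab2, which links Traf6 to the kinase TAK1, at 37.1, 29.6 and 29.7. Irf7, which drives type I interferon genes below Tlr7 and Tlr9 and is itself induced by interferon, was counted in leukaemia 1 against either other. Irf5, an interferon regulatory factor below Myd88, had 11.0 in leukaemia 1 and was listed at 0 in leukaemias 2 and 3, which can be a failed estimate. Genes of receptor trafficking and processing reached FPKM of 1 in all 3 for 8 of 12. Hsp90b1 (gp96), the chaperone that folds TLRs, had 137, 186 and 149, and Ctsb, a protease of the endosome, had 63.4, 52.0 and 38.5. Ctss, an endosomal protease, was counted in leukaemia 1 against both others at 76.1, 32.1 and 36.1.

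Of 12 negative regulators, 10 were at that level in all 3. Otulin, which removes linear ubiquitin chains, had 42.0, 38.3 and 36.8, Sigirr, an inhibitory receptor of the family, had 40.2, 21.04 and 28.6, and Nlrc5 had 30.9, 29.9 and 23.0. Tnfaip3 (A20), an inhibitor of NF-kB, was counted in leukaemia 1 against either other, at 9.22, 3.02 and 3.68. Of 21 further cytosolic sensors and inflammasome genes, 10 were at that level. The helicases Dhx9 at 65.0, 90.5 and 92.7 and Ddx41 at 52.8, 50.8 and 51.0 were highest, followed by Eif2ak2 (PKR), a kinase activated by double-stranded RNA, at 34.98, 25.2 and 23.3. In this list 4 genes were counted in leukaemia 1 against either other, namely Casp4 (24.4, 3.34 and 6.75), the sensor of cytosolic lipopolysaccharide, its substrate Gsdmd (15.1, 4.68 and 7.06), the DNA sensor gene Ifi204 (6.71, 2.71 and 2.14) and Il1b (3.39, 0.407 and 0.662). Of 12 genes that remove nucleic acids, 11 were at that level, led by the lysosomal ribonucleases Rnaset2a (131, 102 and 79.4) and Rnaset2b (113, 89.7 and 88.2) and the RNase H2 subunit Rnaseh2c (90.1, 88.7 and 106.9). Rnaset2a and Rnaset2b are near-identical copies, and the split of fragments between them is uncertain. No gene of this list was counted against both.

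Of 10 interferon-induced genes, Irf7 among them, 9 were at FPKM of at least 1 in all 3 and 10 were highest in leukaemia 1. Of all genes above 0, 42.7% were highest there. By the pair criteria leukaemia 1 exceeded leukaemia 2 in 8 of the 10 and leukaemia 3 in 9. The background over all genes that could be counted was 5.56% and 6.75%. The list median of log2(FPKM + 1) was 5.003, 3.11 and 3.17. Isg15, a ubiquitin-like modifier, had 116, 55.5 and 46.6. Counted in leukaemia 1 against either other were Isg15, Irf7, Rsad2, Ifit1, Ifit3, Oasl2, Mx1 and Ifi44. The members Ifih1, Ddx58 and Zbp1 are also known to be induced by interferon, and of them Ifih1 alone was counted against both others.

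**Figure D5:**
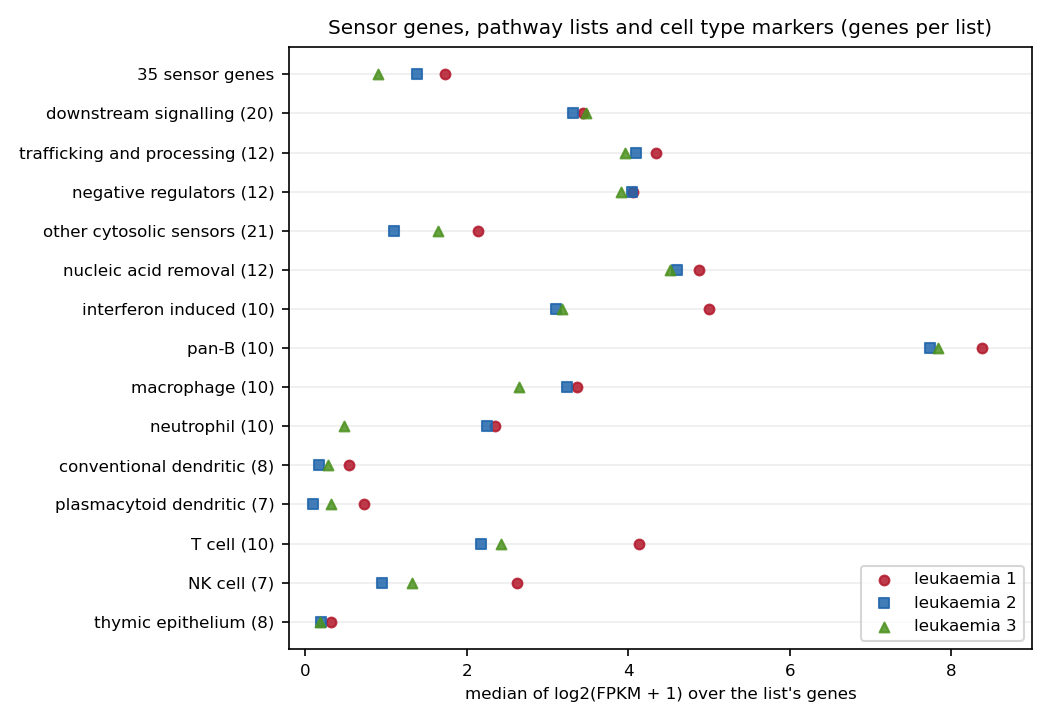
Median of log2(FPKM + 1) over the genes of each list, with 1 point for each of the 3 leukaemias, for the 35 sensor genes, the pathway lists and the cell type marker lists (number of genes in parentheses). The sensor genes lie at 1.73, 1.38 and 0.90, and the point of leukaemia 1 lies furthest to the right for every list drawn except that of downstream signalling.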

How the data were processed

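RNA was sequenced from 3 thymic leukaemias. The submitters' processing notes name TopHat2 2.0.9, Cuffdiff 2.1.1, Cufflinks, Trim Galore 0.2.8.1 and the build mm10, with no settings. Per the file headers, the authors deposited FPKM of each gene, its status and the 2 bounds of a 95% interval. FPKM holds no counts, so no count test was used, and depth in fragments is unknown. The intervals stand for its precision, except for genes whose FPKM lay above its own upper bound. They do not cover differences between animals. For the members at FPKM of at least 1 in all 3 leukaemias, their median half-width was 5.36%, 6.06% and 6.84% of the interval midpoint.

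Each table had 25020 rows. The 26 rows whose symbol had become a date were left out, and FPKM was summed over loci of 1 symbol, which left 24437 genes. FPKM summed to 430787, 415638 and 423979 over these. From FPKM, log2(FPKM + 1) was computed. Overlapping exons were looked up in GENCODE M21 on GRCm38, the assembly of mm10. Of the 35 members 10 share exon bases with another annotated gene, 2 of them on the same strand.

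Pairs of leukaemias were compared by the distance on the log2 scale, a minimum of FPKM and the deposited intervals, over all genes. Related genes were compared with an exact sign-flip permutation test. The rule for the members uses no measured value, but the members, lists and tests were chosen with earlier results of these data known. The text names all members, the 3 genes of highest mean FPKM of each pathway list with those past the pair criteria against both other leukaemias, and the highest and lowest of each marker list. Genes named outside this rule (Traf3, Tmed7, Acaa1a, Tmbim4, Elane, Psmb11, Ccr9, Cox6a2, Lamp5) were chosen after their values were seen. Spi1 and Spib are named as genes of the model. Of the genes that the rule names, 1 is not reported here. Alternatives were other pseudocounts, minimums, distances and scalings, rows of status OK, means for medians, and each library left out. Scripts ran under Python 3.11.15 (pandas 2.3.3, numpy 2.4.6, scipy 1.17.1, matplotlib 3.10.9).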

Additional observations from a re-analysis of the deposited data

How the results depend on the processing

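The counts of members that differed between leukaemias depended on the scale and the distance required. The number higher in leukaemia 1 than in 2 (1 as reported) was 8 with a pseudocount of 0.1, 8 with 0.01, 14 with a distance of 0.5, 0 with a distance of 2 and 11 with a pseudocount of 0.01 and no minimum of FPKM, a setting added after the data were seen. The number higher in leukaemia 1 than in 3 (4 as reported) was 9, 9, 14, 0 and 16 under the same settings, and the number higher in leukaemia 2 than in 3 (1 as reported) was 2, 2, 2, 0 and 2. Over all genes these settings gave 879, 907, 1578, 96 and 1657 higher in leukaemia 1 than in 2 (572 as reported), and 1000, 1031, 1726, 122 and 2068 higher than in 3 (693 as reported). The interval criterion removed few genes. Without it the member counts were unchanged, and 580 and 702 of all genes were higher in leukaemia 1 than in 2 and in 3. With a distance of 0.5, 1 member, Irak3, was lower in leukaemia 1 than in leukaemia 2 and than in leukaemia 3 (1 for each pair). With a minimum FPKM of 5, 11 members were expressed in all 3 leukaemias. The mean over leukaemias of the member median was 0.67 with a pseudocount of 0.1 and 2.02 when members were averaged. Scaling to the upper quartile moved the difference between leukaemias 1 and 3 of all genes by 0.11 on the log2 scale. Leukaemia 1 was highest for 28 members under each scaling tried. A pair lacks a library when 1 is left out, so pair counts have no such value. No paired analysis was possible because the labels give 1 group. Depth limits the lowest genes, and the interval of Tlr5 reached 0 in 2 leukaemias.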
